A study of Mus musculus with 16 samples.

Results

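The TNF superfamily ligands are small signalling proteins that a cell carries on its surface or sheds. This account follows 10 of them through donor T cells recovered after haematopoietic stem cell transplantation in mice: Fasl, Tnfsf10, Tnfsf11, Tnf, Lta, Ltb, Cd40lg, Tnfsf14, Tnfsf8 and Tnfsf4. They were taken by gene, as the probes whose accession belongs to 1 of these genes. That rule uses no measured value, but the ligands were chosen with earlier results of these data known. All 10 had a probe, out of 20972 gene symbols with a probe on the array, and each was measured by exactly 1 probe. The Tnf and Lta probes are printed in 10 spots per array and the others in 1.

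The series asks how donor T cells that infiltrate the ovary in graft versus host disease differ from those in the spleen. All samples were female mice on a C57BL/6 background, and each array measured RNA from up to 10000 donor T cells double-sorted into Trizol. The allogeneic groups, in which donor and recipient differ genetically, were ovarian CD8+ cells (4 arrays), splenic CD8+ cells (3), ovarian CD4+ cells (2) and splenic CD4+ cells (2). The syngeneic groups, in which donor and recipient match, were splenic CD8+ cells (3) and splenic CD4+ cells (2), with no syngeneic ovarian group. The labels give neither the donor strain of the allogeneic transplants, nor the age of the mice, nor the days after transplantation. Nor do they state that the arrays of a group represent different animals, and p-values therefore reflect the spread among these samples, which may be technical.

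Ligands of this family bind trimeric receptors on neighbouring cells. Receptors with a death domain, such as Fas and Tnfr1, can start caspase-driven cell death, and others recruit TRAF adaptors and NF-kB to support survival and costimulation. On activated T cells Fas ligand is a means of killing target cells, and it is known for its part in tissue damage in graft versus host disease. OX40 ligand, CD30 ligand, CD40 ligand and LIGHT are costimulatory ligands, and the lymphotoxins organise lymphoid tissue.

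Ltb, Tnf and Lta are direct neighbours on mouse chromosome 17, in the order Ltb, Tnf, Lta, with Lst1 before Ltb and Nfkbil1 after Lta. Their promoters are shown because the 3 neighbours moved the same way in one of the comparisons below. RefSeq promoter sequences on GRCm38.p6 were found for 8 of the 10 ligands, the exceptions being Cd40lg and Tnfsf4. The 250 bases before the start of each gene are given 5′ to 3′ on the strand of the gene, and capitals mark matches, on either strand, to a loose pattern for NF-kB sites, GGG and CC with any 5 bases between them.
Ltb, chr17:35194257-35194506, plus strand: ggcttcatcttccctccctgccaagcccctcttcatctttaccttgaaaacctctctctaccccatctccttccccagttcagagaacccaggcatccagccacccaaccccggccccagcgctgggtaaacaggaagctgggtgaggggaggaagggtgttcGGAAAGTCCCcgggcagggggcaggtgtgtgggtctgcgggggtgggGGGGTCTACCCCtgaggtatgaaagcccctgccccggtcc
Tnf, chr17:35202008-35202257, minus strand: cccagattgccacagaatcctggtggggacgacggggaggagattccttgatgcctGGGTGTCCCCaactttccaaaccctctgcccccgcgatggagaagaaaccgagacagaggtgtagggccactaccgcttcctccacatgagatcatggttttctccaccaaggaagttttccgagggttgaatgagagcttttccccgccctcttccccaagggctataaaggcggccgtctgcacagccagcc
Lta, chr17:35205352-35205601, minus strand: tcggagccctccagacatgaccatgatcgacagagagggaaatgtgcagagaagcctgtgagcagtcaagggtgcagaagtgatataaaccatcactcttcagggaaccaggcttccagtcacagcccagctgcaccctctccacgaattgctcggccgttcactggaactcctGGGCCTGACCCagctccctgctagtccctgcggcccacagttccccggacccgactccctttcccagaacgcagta
The Ltb window held 4 matches to that pattern, counted with overlaps, the Lta window held 2 that overlap, and the Tnf window held 1. Over 32851 mouse promoter windows of the same length, 45.8% held at least 1 match. GGAAA, the core bound by NFAT factors, was matched 1 time in Ltb, 3 times in Tnf and 2 times in Lta, and in 55.6% of all windows. The GGAAA match in Ltb overlaps one to the NF-kB pattern. TATAAA was matched 1 time each in Tnf and Lta and 0 times in Ltb, against 12.4% of all windows, and TGANTCA, the AP-1 pattern, was matched in none of the 3, against 6.75% of all windows. A match describes letters in the sequence and not a bound site.

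Values are log2 of the processed spot signal minus the 75th percentile of that array, so 0 is the signal that 75% of spots lie below. The 75th percentile itself ran from 67.6 to 450 intensity units and was lowest on the 4 allogeneic CD4 arrays (67.6 to 141). Between 41.8% and 59.4% of the spots were called well above background per array. The sort markers followed the labels: Cd3e was above background on all 16 arrays, Cd8a was well above background on no CD4 array, and Cd4 averaged 4.50 to 5.33 in the CD4 groups. Cd4 was nevertheless measured above background in the CD8 groups, where it averaged 1.75 to 2.30. Cd8b1 averaged 5.73 to 6.52 in the CD8 groups. In CD4 cells it averaged 0.01 in syngeneic spleen, -1.79 in allogeneic spleen and -2.31 in ovary. There it was well above background on 2 of 2, 2 of 2 and 1 of 2 arrays. It was called lower in allogeneic than in syngeneic splenic CD4 cells (-1.80 ± 0.30 SE, limma adjusted p = 0.0024). Transcripts of other cell types were present in the sorts. All 12 B-cell markers were well above background in both syngeneic groups, where log2 of their summed relative signal was 4.49 to 7.06 per array. In the allogeneic groups that sum was 4.09 to 4.32 in splenic CD4 cells, 2.30 to 3.08 in splenic CD8 cells, 2.17 to 2.70 in ovarian CD4 cells and at most 1.84 in ovarian CD8 cells. In ovarian CD4 cells the B-cell markers Ms4a1, Cd79a and Pax5 never reached the well above background call. The sum of 13 macrophage markers was 4.40 to 6.70 in the CD4 groups and 2.70 to 3.33 in the CD8 groups.

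**Figure D1:**
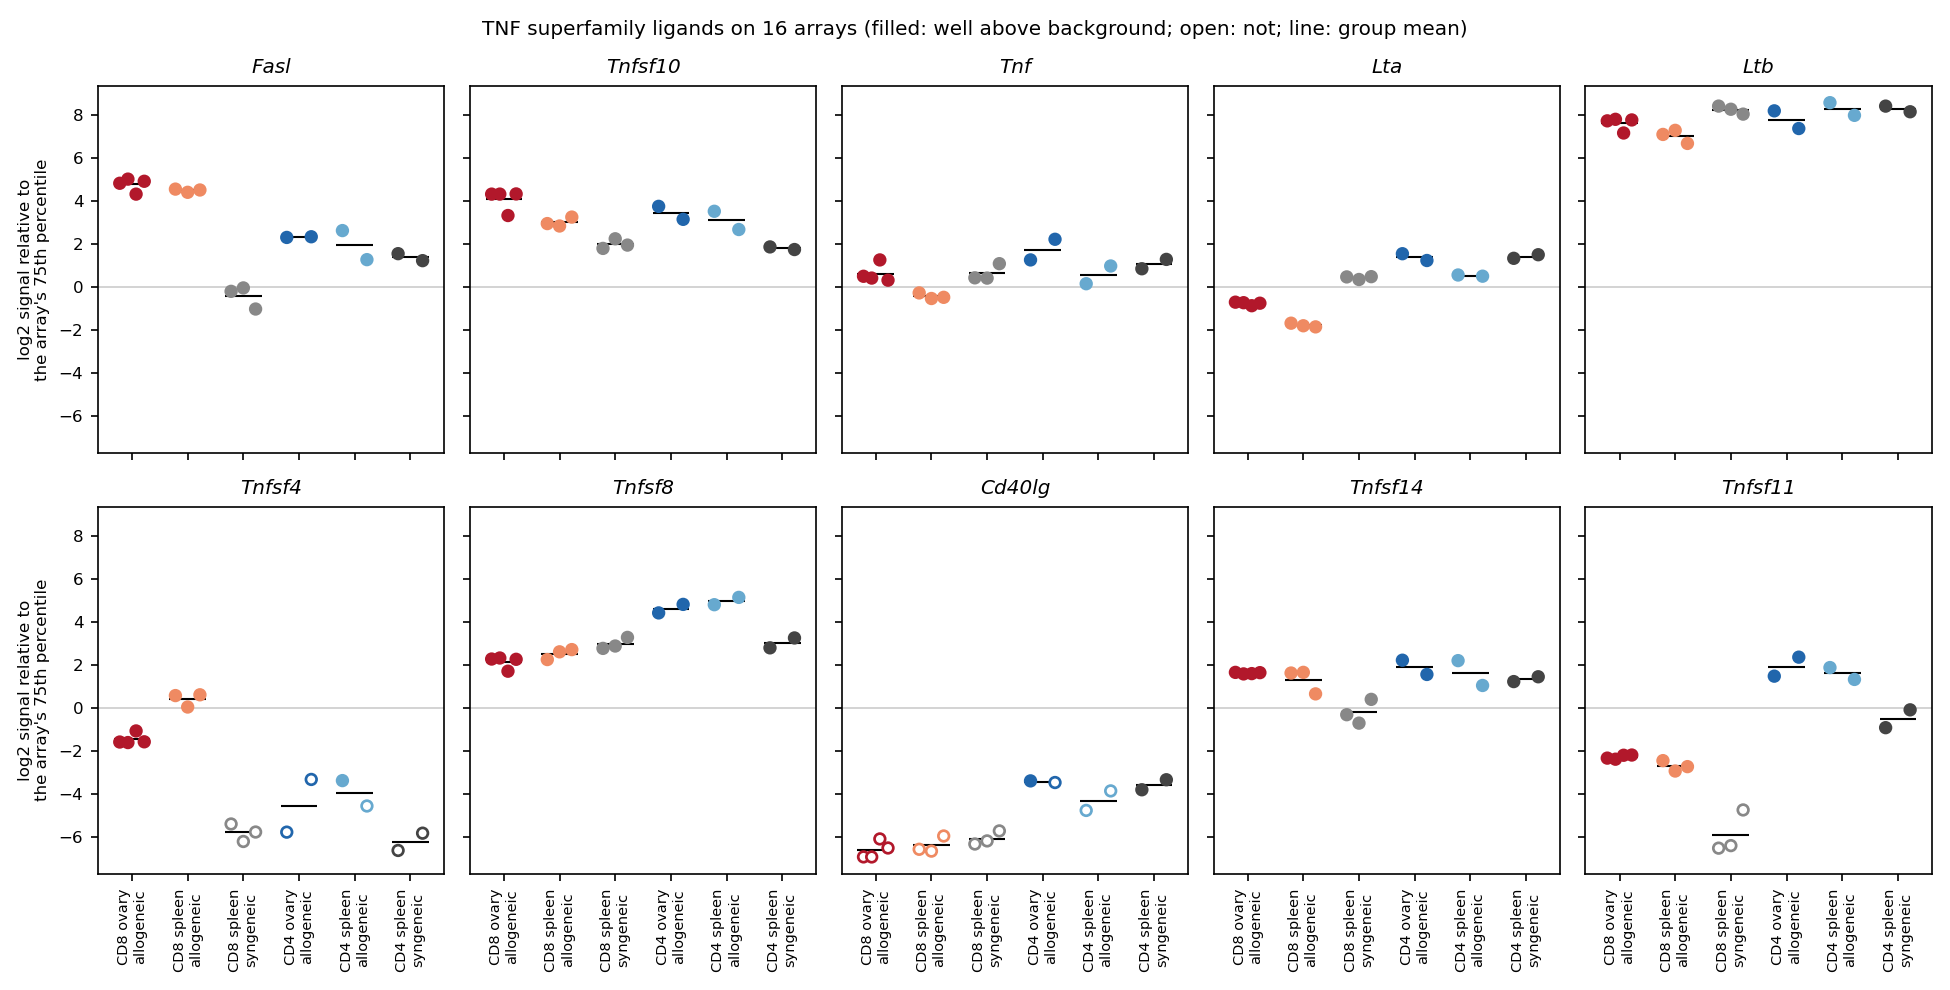
Each panel plots 1 ligand, with the 6 groups on the horizontal axis and the log2 signal relative to the 75th percentile of the array on the vertical axis; points are the 16 arrays, open where the spot was not well above background, and lines are group means. Fasl lies between 4.32 and 5.02 in both allogeneic CD8 groups and below 0 on all 3 syngeneic CD8 arrays.

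Fasl and Tnfsf10 encode the death ligands, Fas ligand and TRAIL. In syngeneic splenic CD8 cells Fasl read -0.20, -0.04 and -1.02. In allogeneic splenic CD8 cells it read 4.56, 4.41 and 4.52, and in ovarian CD8 cells 4.83, 5.02, 4.32 and 4.92. These allogeneic groups overlapped each other, and no syngeneic CD8 array came near them. The CD4 groups lay between, at 2.31 and 2.34 in ovary, 2.63 and 1.28 in allogeneic spleen and 1.55 and 1.23 in syngeneic spleen. From the highest group mean to the lowest, the order was ovarian CD8, allogeneic splenic CD8, ovarian CD4, allogeneic splenic CD4, syngeneic splenic CD4 and syngeneic splenic CD8. Among neighbours in that order, allogeneic splenic CD8 did not overlap ovarian CD4 and syngeneic splenic CD4 did not overlap syngeneic splenic CD8, while the other neighbours overlapped.

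Tnfsf10 read 1.80, 2.25 and 1.95 in syngeneic splenic CD8 cells and 2.95, 2.84 and 3.26 in allogeneic ones. Ovarian CD8 cells read 4.32, 4.33, 3.33 and 4.33. The 3 CD8 groups were thus in separate ranges, with 1 ovarian array, replicate 3, close to the splenic ones. CD4 cells read 3.76 and 3.15 in ovary, 3.53 and 2.68 in allogeneic spleen and 1.87 and 1.75 in syngeneic spleen. The 2 syngeneic groups overlapped each other and lay below all 4 allogeneic groups, and each allogeneic group overlapped its neighbour in the order of means.

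Tnf, Lta and Ltb encode tumour necrosis factor, lymphotoxin alpha and lymphotoxin beta. Lta read 1.34 and 1.51 in syngeneic splenic CD4 cells and 1.55 and 1.24 in ovarian CD4 cells, which overlapped. It read 0.56 and 0.51 in allogeneic splenic CD4 cells and 0.47, 0.35 and 0.48 in syngeneic splenic CD8 cells. In ovarian CD8 cells Lta read -0.70, -0.73, -0.87 and -0.75, and in allogeneic splenic CD8 cells -1.68, -1.80 and -1.85. Apart from the first pair, no neighbouring groups overlapped, and the arrays within each group lay within 0.32 of each other. Between its 10 spots the Lta probe had a median SD of 0.07 per array, and the highest, 0.44, was on replicate 1 of allogeneic splenic CD4 cells.

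Tnf read 1.26 and 2.22 in ovarian CD4 cells, 0.85 and 1.29 in syngeneic splenic CD4 cells, and 0.16 and 0.98 in allogeneic splenic CD4 cells. In syngeneic splenic CD8 cells it read 0.43, 0.42 and 1.09, and in ovarian CD8 cells 0.50, 0.42, 1.26 and 0.32. Allogeneic splenic CD8 cells, at -0.27, -0.53 and -0.48, were below every other group, and the other neighbouring groups overlapped. Their replicate 1 also had the largest spread between the 10 Tnf spots, an SD of 0.40 against a median of 0.06 over the arrays.

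Ltb read 8.42, 8.27 and 8.05 in syngeneic splenic CD8 cells, 7.10, 7.29 and 6.68 in allogeneic splenic CD8 cells, and 7.73, 7.81, 7.17 and 7.78 in ovarian CD8 cells. It read 8.42 and 8.16 in syngeneic splenic CD4 cells, 8.58 and 7.99 in allogeneic splenic CD4 cells and 8.20 and 7.38 in ovarian CD4 cells. The group means spanned 1.26, the smallest span of the 10 ligands, and every neighbouring pair of groups overlapped.

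Tnfsf4, Tnfsf8, Cd40lg and Tnfsf14 encode the costimulatory ligands OX40 ligand, CD30 ligand, CD40 ligand and LIGHT. Tnfsf4 was well above background on every allogeneic CD8 array, at 0.58, 0.05 and 0.62 in spleen and -1.58, -1.61, -1.07 and -1.57 in ovary. It stayed below that call on all 5 syngeneic arrays (-5.40, -6.21 and -5.77 in CD8 cells, -6.63 and -5.82 in CD4 cells) and on both ovarian CD4 arrays (-5.78 and -3.32). In allogeneic splenic CD4 cells it was above background on 1 of 2 arrays, at -3.38, and not on the other, at -4.56. The splenic and ovarian allogeneic CD8 groups did not overlap each other, and both lay above all other groups.

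Tnfsf8 read 4.43 and 4.82 in ovarian CD4 cells and 4.81 and 5.15 in allogeneic splenic CD4 cells. Syngeneic splenic CD4 cells read 2.80 and 3.26 and syngeneic splenic CD8 cells 2.77, 2.88 and 3.29. Allogeneic splenic CD8 cells read 2.26, 2.61 and 2.72 and ovarian CD8 cells 2.28, 2.33, 1.71 and 2.27. The 4 allogeneic CD4 arrays lay above the other 12, the syngeneic CD4 and CD8 groups overlapped, and so did the allogeneic CD8 groups.

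Cd40lg was dim throughout. It was well above background on both syngeneic splenic CD4 arrays (-3.80 and -3.34) and on 1 of 2 ovarian CD4 arrays (-3.39, the other at -3.47), on neither allogeneic splenic CD4 array (-4.77 and -3.86) and on 0 of 10 CD8 arrays. The CD8 readings ran from -5.95 to -6.66 in allogeneic spleen, from -5.72 to -6.33 in syngeneic spleen and from -6.09 to -6.93 in ovary. Below that call the reading moves with the 75th percentile that is subtracted, so no order is read among such arrays.

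Tnfsf14 read -0.31, -0.70 and 0.40 in syngeneic splenic CD8 cells, below every array of the other groups. Those read 1.63, 1.66 and 0.66 in allogeneic splenic CD8 cells, 1.66, 1.59, 1.60 and 1.65 in ovarian CD8 cells, 1.23 and 1.45 in syngeneic splenic CD4 cells, 2.20 and 1.05 in allogeneic splenic CD4 cells and 2.22 and 1.56 in ovarian CD4 cells. Syngeneic splenic CD4 cells lay below ovarian CD8 cells without overlap, and the other neighbours among these 5 groups overlapped.

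Tnfsf11 encodes RANKL, the ligand that drives osteoclast and lymphoid tissue development. It read 1.48 and 2.37 in ovarian CD4 cells and 1.88 and 1.33 in allogeneic splenic CD4 cells, which overlapped, and -0.91 and -0.08 in syngeneic splenic CD4 cells. In CD8 cells it read -2.33, -2.38, -2.20 and -2.19 in ovary and -2.45, -2.93 and -2.73 in allogeneic spleen, without overlap. On the 3 syngeneic splenic CD8 arrays it was not well above background, at -6.52, -6.40 and -4.74. Every CD4 reading of Tnfsf11 lay above every CD8 reading.

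Differences between groups were tested with limma over 26891 features, and a ligand is called where the Benjamini-Hochberg adjusted p over all of them was under 0.05. All 10 ligands passed the filter on dim probes. Cd40lg passed it only through syngeneic splenic CD4 cells, and Tnfsf4 only through the 2 allogeneic CD8 groups. Both were therefore bound to be higher there than where they were dim. In such comparisons their p-values and their places in the counts of calls are no support. Where no array of a group had the probe well above background, the fold is a lower bound, taken per array against the lowest signal that was called well above background or the probe's own signal, whichever was higher. For bulk samples, fewer expressing cells and less RNA per cell cannot be told apart.

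Allogeneic against syngeneic transplantation was compared within the spleen, between sorted samples whose B-cell markers also differed. In CD8 cells 5 ligands rose, Fasl, Tnfsf4, Tnfsf11, Tnfsf14 and Tnfsf10, and the 3 neighbours Lta, Ltb and Tnf fell. The background was large, since 16.9% of all features were called higher and 20.3% lower in this comparison. Fasl rose by 4.91 ± 0.33 on the log2 scale (SE; 30.2-fold, limma adjusted p = 3.93e-07). Tnfsf4 was at least 22.7-fold higher (adjusted p = 2.31e-06) and Tnfsf11 at least 2.62-fold higher (adjusted p = 8.7e-05), both against syngeneic arrays where they were not well above background. Tnfsf4 passed the filter only through allogeneic CD8 cells, so its direction here was bound beforehand. With a common signal floor for all arrays the Tnfsf11 difference was 0.02 and its call was lost. Tnfsf14 rose by 1.52 ± 0.36 (adjusted p = 0.00572) and Tnfsf10 by 1.02 ± 0.30 (adjusted p = 0.0194). Lta fell by 2.21 ± 0.13 (4.64-fold, adjusted p = 1.02e-07), Ltb fell by 1.22 ± 0.26 (adjusted p = 0.00318) and Tnf fell by 1.07 ± 0.33 (adjusted p = 0.0222). Tnfsf8 differed by -0.45 (95% interval -0.94 to 0.04), and Cd40lg was not well above background in either group.

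The median difference of all features in the CD8 comparison was -0.21, and it moved to -0.11 with quantile normalization and to -0.05 with normexp correction. Relative to that median, Lta differed by -2.004, Ltb by -1.01 and Tnf by -0.86. The call of Ltb was lost with quantile normalization (-0.84, adjusted p = 0.0547). Of the 12 B-cell markers, 10 were called lower in the same comparison, with a median difference of -2.19, and the part of B-cell transcripts in the lower Lta, Ltb and Tnf was not tested. Without replicate 2 of the allogeneic group Tnf differed by -1.02 (adjusted p = 0.0649), and without replicate 3 of the syngeneic group by -0.85 (adjusted p = 0.0902). Tnfsf10 lost its call without allogeneic replicate 3 (0.90, adjusted p = 0.0554), syngeneic replicate 1 (0.92, adjusted p = 0.0644) or syngeneic replicate 3 (0.99, adjusted p = 0.0521).

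In CD4 cells 4 ligands rose with allogeneic transplantation, Tnfsf8, Tnfsf11, Tnfsf10 and Tnfsf4, and Lta fell, against 9.28% of all features called higher and 5.26% lower. Tnfsf8 rose by 1.95 ± 0.28 (SE; 3.86-fold, limma adjusted p = 0.000847). Tnfsf11 rose by 2.11 ± 0.51 (adjusted p = 0.0176) and Tnfsf10 by 1.29 ± 0.37 (adjusted p = 0.0365). Tnfsf4 was at least 1.2-fold higher (adjusted p = 0.0343), with 1 of 2 allogeneic arrays above background. Lta fell by 0.89 ± 0.15 (adjusted p = 0.00282). Fasl differed by 0.56 (95% interval -0.32 to 1.44), Tnf by -0.50 (-1.37 to 0.37), Ltb by -0.00 (-0.70 to 0.70) and Tnfsf14 by 0.28 (-0.67 to 1.24). Cd40lg was above background on the 2 syngeneic CD4 arrays and on neither allogeneic one, and its lower bound of a fold was under 1, so none is given. Cd40lg was called lower with slide as a block (adjusted p = 0.0482). B-cell markers were lower in allogeneic CD4 cells too (4.09 to 4.32 against 6.15 to 7.06), and their part in the lower Lta was not tested. The macrophage marker sum was higher in allogeneic CD4 cells (6.31 to 6.63 against 4.40 to 5.26), with 2 of 12 tested markers called higher and 0 lower. The part of macrophage transcripts in the ligands that rose was not tested.

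Several of the CD4 calls depended on 1 array. Without allogeneic replicate 1 the differences were 0.87 for Tnfsf10 (adjusted p = 0.189) and 1.83 for Tnfsf11 (adjusted p = 0.0815), and Tnfsf4 lost its call (adjusted p = 0.168), with no array above background left on either side. Without syngeneic replicate 1 they were 1.36 for Tnfsf10 (adjusted p = 0.135) and 1.69 for Tnfsf11 (adjusted p = 0.153), and Tnfsf4 was not called (adjusted p = 0.222). Without syngeneic replicate 2, Tnfsf10 (1.23, adjusted p = 0.127) and Tnfsf4 (adjusted p = 0.0557) lost their calls. Fasl became called without allogeneic replicate 2, the dimmest array (1.24, adjusted p = 0.044). Tnfsf4 was also not called with quantile normalization (adjusted p = 0.214), normexp correction (adjusted p = 0.109) or a common signal floor, where its difference was 0.

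**Figure D2:**
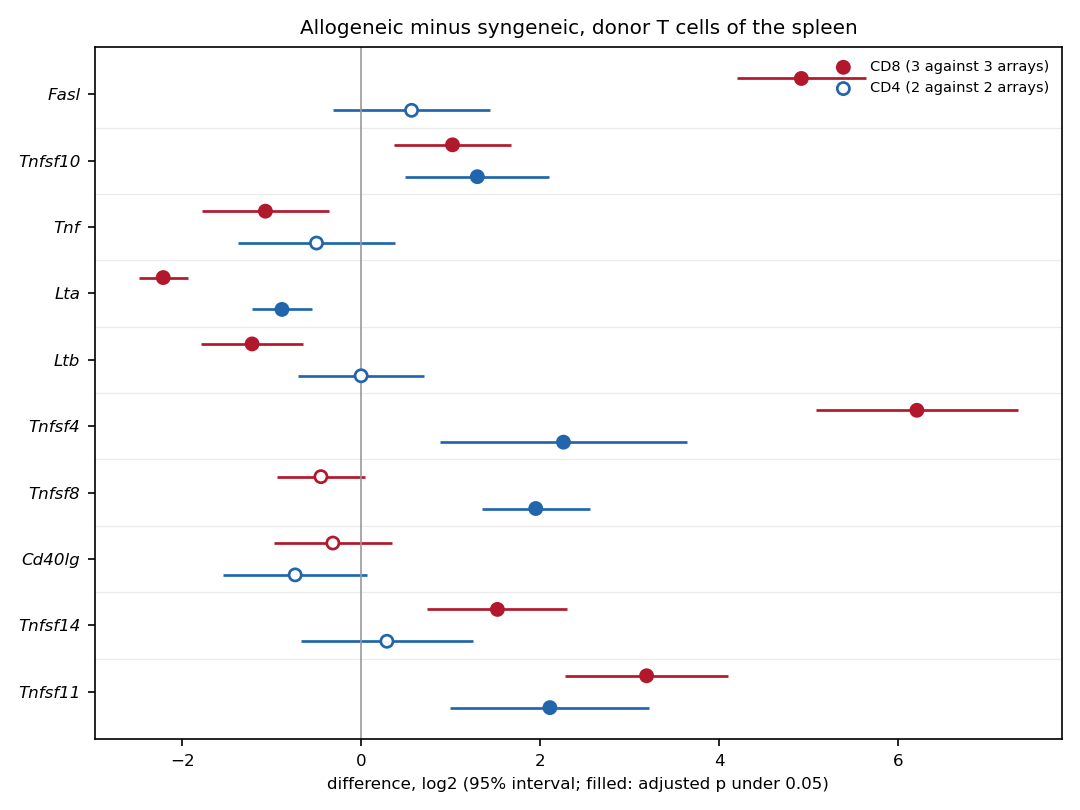
Points are the log2 differences of the 10 ligands between allogeneic and syngeneic splenic T cells, in CD8 cells (3 against 3 arrays) and CD4 cells (2 against 2), with 95% intervals; filled points passed an adjusted p of 0.05. Fasl and Tnfsf4 stand farthest to the right in CD8 cells, at 4.91 and 6.21, the latter a fitted value against dim arrays, and Tnfsf8 stands at 1.95 in CD4 cells and -0.45 in CD8 cells.

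The difference of these 2 effects, CD8 minus CD4, was itself tested and was called for 4 ligands, 2 in each direction. Over all features 4.48% were called higher and 6.05% lower. Fasl responded more in CD8 cells by 4.35 ± 0.52 (SE, limma adjusted p = 0.000642). Tnfsf4 did so by a fitted 3.95 ± 0.82 (adjusted p = 0.0122), which rests on dim syngeneic arrays and is not a bound. Only the allogeneic CD8 groups brought Tnfsf4 past the filter, so its call is no support here. Tnfsf8 rose in CD4 cells and not in CD8 cells, a difference of effects of -2.40 ± 0.36 (adjusted p = 0.0024). Lta fell in both subsets, and by 1.33 ± 0.20 more in CD8 cells (adjusted p = 0.00241), a difference of effects that was -0.57 with normexp correction (adjusted p = 0.0172). Ltb had a difference of effects of -1.22 (95% interval -2.12 to -0.31, adjusted p = 0.0811) and became called without replicate 2 of allogeneic splenic CD4 cells (-1.51, adjusted p = 0.0478), with slide as a block (-1.36, adjusted p = 0.0102) and on slide 1 alone (-1.38, adjusted p = 0.041). Tnfsf11 has no settled direction here, since its syngeneic CD8 arrays were not above background. Its fitted difference of effects of 1.08 was not called, was called at 1.65 without replicate 3 of syngeneic splenic CD8 cells (adjusted p = 0.0451), and was called at -2.09 with a common signal floor (adjusted p = 0.00528). Tnfsf10 had one of -0.28 (-1.32 to 0.76), Tnf of -0.57 (-1.70 to 0.56) and Tnfsf14 of 1.23 (-0.00 to 2.47). Cd40lg was above background in 1 of the 4 groups, and no value is given.

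CD8 cells were compared with CD4 cells in each setting, which shows how the subsets divide the ligands. In both allogeneic tissues CD8 cells had more Fasl and less Tnfsf11, Lta and Tnfsf8 than CD4 cells. Tnfsf4 was higher in CD8 cells too, but it passed the filter only through these CD8 groups. Its calls here, and its place in the counts, are therefore no support. In ovary 2 ligands were called higher and 5 lower in CD8 cells, against 7.12% and 8.05% of all features. Fasl was higher by 2.45 ± 0.35 (SE; 5.46-fold, limma adjusted p = 0.000958) and Tnfsf4 by at least 3.43-fold (adjusted p = 0.00371). Tnfsf11 was lower by 4.20 on the log2 scale (difference -4.20 ± 0.44, 18.4-fold, adjusted p = 0.000122) and Tnfsf8 had a difference of -2.48 ± 0.24 (adjusted p = 6.48e-05). Lta had a difference of -2.16 ± 0.13 (adjusted p = 2.1e-06), and Cd40lg was at least 2.23-fold lower in CD8 cells (adjusted p = 8.63e-05), a bound that takes the mean of both CD4 arrays, of which 1 was above background. With a common signal floor the Cd40lg difference was 0 here and in syngeneic spleen. Tnf had a difference of -1.12 ± 0.35, just inside the threshold (adjusted p = 0.0489). Tnfsf10 had one of 0.63 (95% interval -0.07 to 1.32), Ltb of -0.17 (-0.77 to 0.44) and Tnfsf14 of -0.27 (-1.10 to 0.56).

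The ovarian difference of Tnf was called under 13 of 30 alternatives. The call was lost without ovarian CD4 replicate 2 (-0.64, adjusted p = 0.456), without ovarian CD8 replicate 1, 2 or 4 (-1.08, -1.05 and -1.02, adjusted p = 0.101 to 0.111), and when any of the 3 allogeneic splenic CD8 arrays, both syngeneic splenic CD4 arrays or syngeneic splenic CD8 replicates 1 and 2 was left out singly, which leaves the difference at -1.12 and gave adjusted p-values of 0.0571 to 0.0657. Tnfsf10 became called without ovarian CD8 replicate 3 (0.87, adjusted p = 0.0443). Without ovarian CD4 replicate 1 the fitted difference of Tnfsf4 was 1.87 (adjusted p = 0.0271) in place of 3.09.

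In allogeneic spleen the same comparison gave 2 ligands higher and 5 lower in CD8 cells, against 13% and 13.7% of all features. Fasl was higher by 2.54 ± 0.37 (SE, limma adjusted p = 0.000679), and Tnfsf4 by 4.38 ± 0.58 (adjusted p = 0.000388) with 1 of 2 CD4 arrays above background. Only allogeneic CD8 cells brought Tnfsf4 past the filter, so its call is no support in this comparison either. Tnfsf11 had a difference of -4.31 ± 0.47 (adjusted p = 0.000102), Tnfsf8 of -2.45 ± 0.25 (adjusted p = 7.49e-05) and Lta of -2.31 ± 0.14 (adjusted p = 2.52e-06). Ltb was lower in CD8 cells here (-1.26 ± 0.29, adjusted p = 0.00906), and without replicate 1 of allogeneic splenic CD4 cells it was not called (-0.96, adjusted p = 0.0644). Cd40lg was called lower (adjusted p = 0.00131) but neither group had an array where it was well above background, so the call is not read as a difference. It was lost with normexp correction (adjusted p = 0.0735) and with a common signal floor. Tnf had a difference of -0.996 (95% interval -1.79 to -0.20, adjusted p = 0.0622) and was called with slide as a block (-0.93, adjusted p = 0.0383), and when ovarian CD4 replicate 1 or 2 (adjusted p = 0.0462), ovarian CD8 replicate 3 (adjusted p = 0.0426) or allogeneic splenic CD4 replicate 1 (-1.41, adjusted p = 0.0347) was left out. Tnfsf10 had one of -0.08 (-0.82 to 0.65) and Tnfsf14 of -0.31 (-1.19 to 0.56).

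In syngeneic spleen 0 ligands were called higher in CD8 cells and 4 lower, against 1.13% and 2.52% of all features. Fasl was here lower in CD8 cells, by 1.81 on the log2 scale (difference -1.81 ± 0.37, 3.51-fold, limma adjusted p = 0.0159), the opposite direction to both allogeneic tissues. Tnfsf11 was at least 12.1-fold lower (adjusted p = 5.24e-05) and Cd40lg at least 1.44-fold lower (adjusted p = 0.00111), and Lta had a difference of -0.99 ± 0.14 (adjusted p = 0.00164). Cd40lg passed the filter only through these CD4 cells, so its direction here was bound beforehand. Tnfsf14 missed the threshold (-1.55, 95% interval -2.42 to -0.67, adjusted p = 0.0583). It became called with slide as a block (-1.49, adjusted p = 0.0451), with normexp correction (-1.32, adjusted p = 0.0392), with quantile normalization (-1.63, adjusted p = 0.0424), and without allogeneic splenic CD4 replicate 1 or 2 (adjusted p = 0.0309), allogeneic splenic CD8 replicate 3 (adjusted p = 0.0353) or syngeneic splenic CD8 replicate 3 (-1.85, adjusted p = 0.0269). Fasl lost its call without syngeneic CD4 replicate 1 (-1.65, adjusted p = 0.124) or 2 (-1.97, adjusted p = 0.0821). Tnfsf8 had a difference of -0.05 (-0.60 to 0.50), Ltb of -0.04 (-0.68 to 0.60), Tnf of -0.42 (-1.22 to 0.37) and Tnfsf10 of 0.19 (-0.54 to 0.93), and Tnfsf4 was not well above background in either group. In all 3 settings the macrophage and the B-cell marker sums were higher in CD4 than in CD8 cells. Of 12 tested macrophage markers, 12 were called lower in CD8 cells in ovary, 12 in allogeneic spleen and 7 in syngeneic spleen. Of 12 B-cell markers, 2 were called lower in CD8 cells in ovary, 5 in allogeneic spleen and 3 in syngeneic spleen. The shares of all features called lower were 8.05%, 13.7% and 2.52%. In each setting 0 markers of these 2 lists were called higher. Of 7 tested natural killer cell markers, 1 was called higher and 2 lower in CD8 cells of syngeneic spleen. In ovary and in allogeneic spleen 3 were called higher and 2 lower. The part of such other cells in the ligands that differed between the subsets, Fasl included, was not tested.

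**Figure D3:**
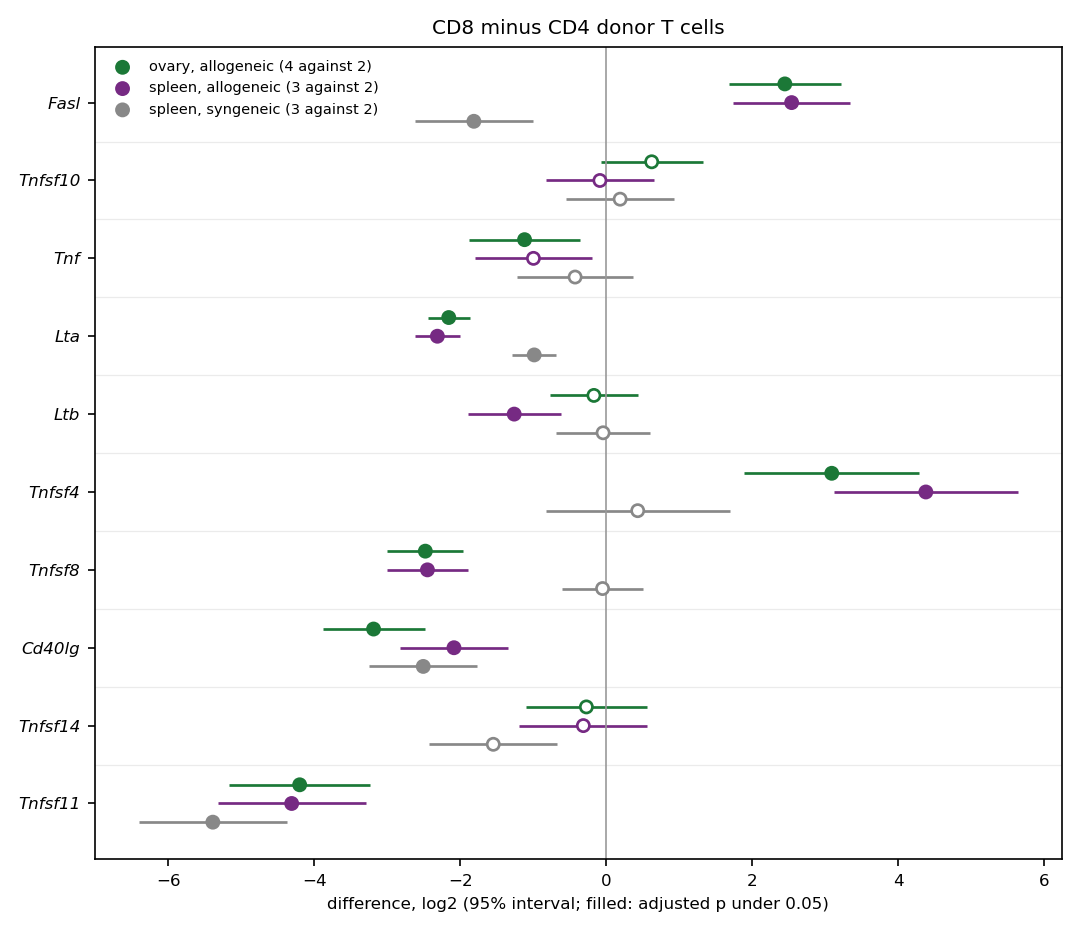
Points are log2 differences, CD8 minus CD4 donor T cells, of the 10 ligands in ovary (4 against 2 arrays), allogeneic spleen (3 against 2) and syngeneic spleen (3 against 2), with 95% intervals; filled points passed an adjusted p of 0.05. Fasl lies at 2.45 and 2.54 in the allogeneic tissues and at -1.81 in syngeneic spleen, and Tnfsf11 lies at -4.20 or below in all 3 settings.

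Ovary was compared with spleen among allogeneic cells, which is the comparison the series was built around. Lta was the 1 ligand called in either subset, higher in ovary in both, and 9 of 10 were not called in each. The Lta call held under 28 of 30 alternatives in CD8 cells and under 20 of 30 in CD4 cells. In CD8 cells 0.182% of all features were called higher in ovary and 0.193% lower. Lta was higher by 1.02 ± 0.12 (SE; 2.02-fold, limma adjusted p = 0.00179). With normexp correction the difference was 0.56 (adjusted p = 0.00646), and the call was lost on slide 1 alone (adjusted p = 0.0612) and on slide 2 alone (adjusted p = 0.703). Tnfsf10 differed by 1.06 (95% interval 0.45 to 1.68, adjusted p = 0.188) and Tnf by 1.05 (0.39 to 1.72, adjusted p = 0.242), neither called. Tnfsf11 differed by 0.43 (-0.42 to 1.28) and Tnfsf4 by -1.87 (-2.93 to -0.81, adjusted p = 0.169), also not called. Without ovarian CD8 replicate 3 Tnfsf10 was called (1.31, adjusted p = 0.0253), and without ovarian CD4 replicate 1 or 2, which changes the shared spread, Tnfsf4 was called lower (-1.87, adjusted p = 0.0294). Fasl differed by 0.28 (-0.39 to 0.95), Ltb by 0.60 (0.06 to 1.13), Tnfsf14 by 0.31 (-0.42 to 1.04) and Tnfsf8 by -0.38 (-0.84 to 0.08), and Cd40lg was not above background.

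In CD4 cells 0.316% of all features were called higher in ovary and 0.461% lower. Lta was higher by 0.86 ± 0.15 (SE; 1.82-fold, limma adjusted p = 0.0295). That call was lost without a filter on dim probes (adjusted p = 0.191), with only the 2 groups in the fit (adjusted p = 0.963), with the replicate number as a block (adjusted p = 0.0708), on slide 2 alone (0.73, adjusted p = 0.489) and without ovarian CD4 replicate 1 (0.70, adjusted p = 0.0735). It was also lost, at an unchanged difference of 0.86 and adjusted p-values of 0.0514 to 0.0597, when ovarian CD8 replicate 1, 2 or 4, allogeneic splenic CD8 replicate 2 or syngeneic splenic CD8 replicate 1 was left out. Tnf differed by 1.18 (95% interval 0.30 to 2.05, adjusted p = 0.207) and was not called. Fasl differed by 0.37 (-0.51 to 1.25), Tnfsf10 by 0.35 (-0.45 to 1.16), Tnfsf11 by 0.32 (-0.79 to 1.43), Ltb by -0.50 (-1.20 to 0.20), Tnfsf14 by 0.27 (-0.69 to 1.23) and Tnfsf8 by -0.35 (-0.96 to 0.25). Tnfsf4 was above background on 1 of these 4 arrays. Cd40lg was above background on 1 of 2 ovarian arrays and on 0 of 2 splenic arrays, and no fold is given.

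The difference between the tissue effects of the 2 subsets was called for 0 of 10 ligands, over a background of 0.0186% of features higher and 0.00372% lower. By limma 2 of 10, Ltb and Cd40lg, had an unadjusted p under 0.05. Ltb had a difference of effects of 1.09 (95% interval 0.21 to 1.97, adjusted p = 0.387). Cd40lg was above background on 1 of the 11 allogeneic arrays, and its value is not read. The summed B-cell markers were lower in ovary than in allogeneic spleen in both subsets, where Lta was higher. Of 7 tested granulosa cell markers, 1 was called higher in ovary in CD8 cells and 2 in CD4 cells, against 0.182% and 0.316% of all features. Of 7 tested theca or luteal cell markers, 2 were called higher in CD8 cells and 1 in CD4 cells. Of 5 tested stromal markers, 1 was called higher in CD8 cells and 1 lower in CD4 cells. The part of such cells in the higher Lta was not tested. The allogeneic splenic arrays are the same ones that enter the comparison with syngeneic spleen.

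**Figure D4:**
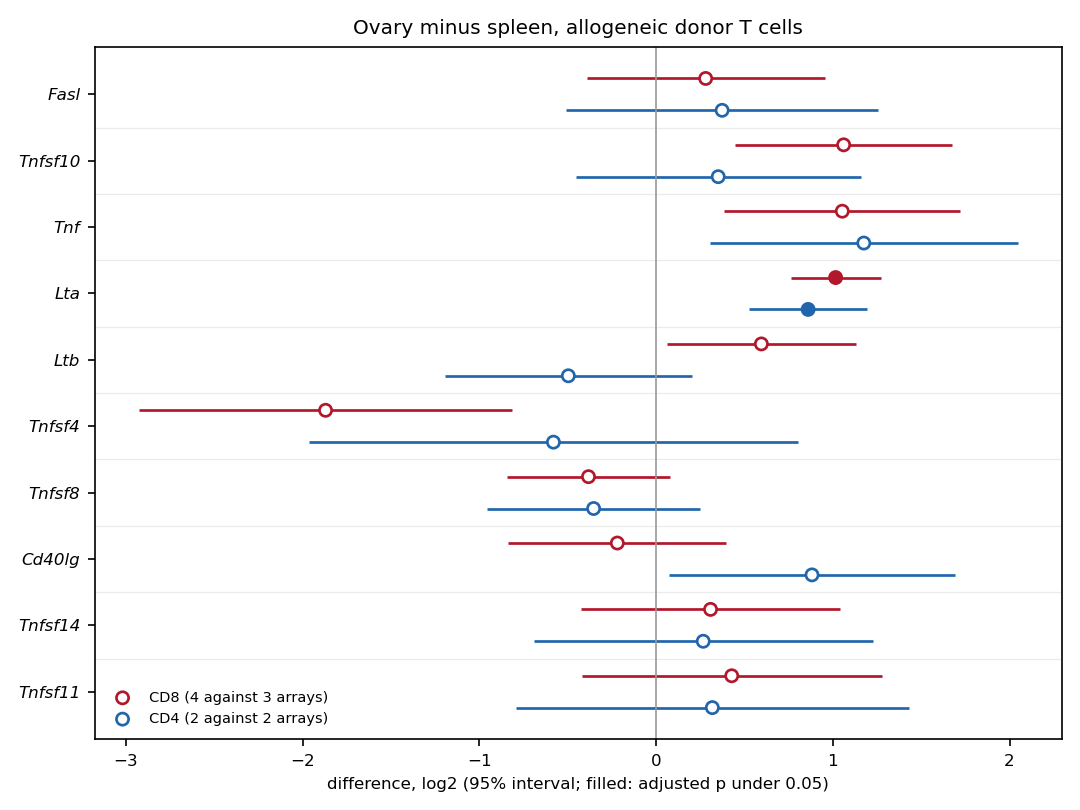
Points are log2 differences, ovary minus spleen, of the 10 ligands in allogeneic CD8 cells (4 against 3 arrays) and CD4 cells (2 against 2), with 95% intervals; filled points passed an adjusted p of 0.05. Lta, at 1.02 and 0.86, carries the 2 filled points.

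The arrays lie on 2 slides of 8 arrays, with every group on both, and each difference was recomputed on each slide alone. Over the 9 comparisons the ligands were called 37 times, including Cd40lg calls that rest on dim arrays, and all 37 differences kept their sign on each slide. Each slide holds part of the arrays that gave the calls, so a kept sign is not an independent test. In splenic CD8 cells the effect of allogeneic transplantation on Fasl was 4.68 on slide 1 and 5.05 on slide 2, and on Lta -2.21 and -2.27. The effect on Tnfsf8 in CD4 cells was 2.01 on slide 1 and 1.89 on slide 2. Lta, ovary against spleen, was 1.03 and 1.04 in CD8 cells and 0.99 and 0.73 in CD4 cells. With slide as a block the 4 values behind the interactions were 4.24 for Fasl, 4.05 for Tnfsf4, -2.34 for Tnfsf8 and -1.35 for Lta.

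Receptors of the ligands were measured on the same arrays, 13 with a probe and 11 tested. In splenic CD8 cells 3 receptors rose with allogeneic transplantation and 7 fell, against 16.9% and 20.3% of all features, with a median difference of -1.07 against -0.21 over all features. Tnfrsf1b, the TNF receptor that lacks a death domain, rose by 3.01 ± 0.28 (SE, limma adjusted p = 5.25e-06), Tnfrsf4, the OX40 receptor of Tnfsf4, by 2.25 ± 0.29 (adjusted p = 7.86e-05), and Tnfrsf1a, the death domain receptor of TNF and lymphotoxin alpha, by 1.003 ± 0.19 (adjusted p = 0.00134). Cd40 fell by 3.67 ± 0.48 and the decoy receptors Tnfrsf22 and Tnfrsf23 fell by 2.57 ± 0.28 and 2.57 ± 0.34. The TRAIL receptor Tnfrsf10b fell by 1.41, the lymphotoxin beta receptor Ltbr by 1.85, the LIGHT receptor Tnfrsf14 by 0.94 and the RANKL receptor Tnfrsf11a by 1.07, all with adjusted p-values of at most 0.0463. Fas itself had a difference of -0.68 ± 0.26 (adjusted p = 0.0549). Cd40 and Ltbr are known mainly from B cells and from stromal or myeloid cells, and the B-cell markers fell in the same comparison. The part of other cells was not tested.

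In splenic CD4 cells 2 receptors rose and 3 fell with allogeneic transplantation, against 9.28% and 5.26% of all features, with a median of -0.20 against 0.03 over all features. Tnfrsf4 rose by 2.79 ± 0.36 (SE, limma adjusted p = 0.000433) and Tnfrsf1b by 2.30 ± 0.34 (adjusted p = 0.00109). Cd40 fell by 2.60, Tnfrsf10b by 0.87 and Tnfrsf1a by 0.75 ± 0.23 (adjusted p = 0.0486). Tnfrsf1a thus moved in opposite directions in the 2 subsets, and the difference of effects was 1.75 ± 0.30 (adjusted p = 0.0048). Tnfrsf22, Tnfrsf23, Tnfrsf11a and Ltbr had differences of -0.20, -0.11, 0.20 and 0.61, none called. Tnfrsf8, the CD30 receptor of Tnfsf8, and Tnfrsf11b, the soluble RANKL decoy osteoprotegerin, stayed below the background call on all 16 arrays.

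**Figure D5:**
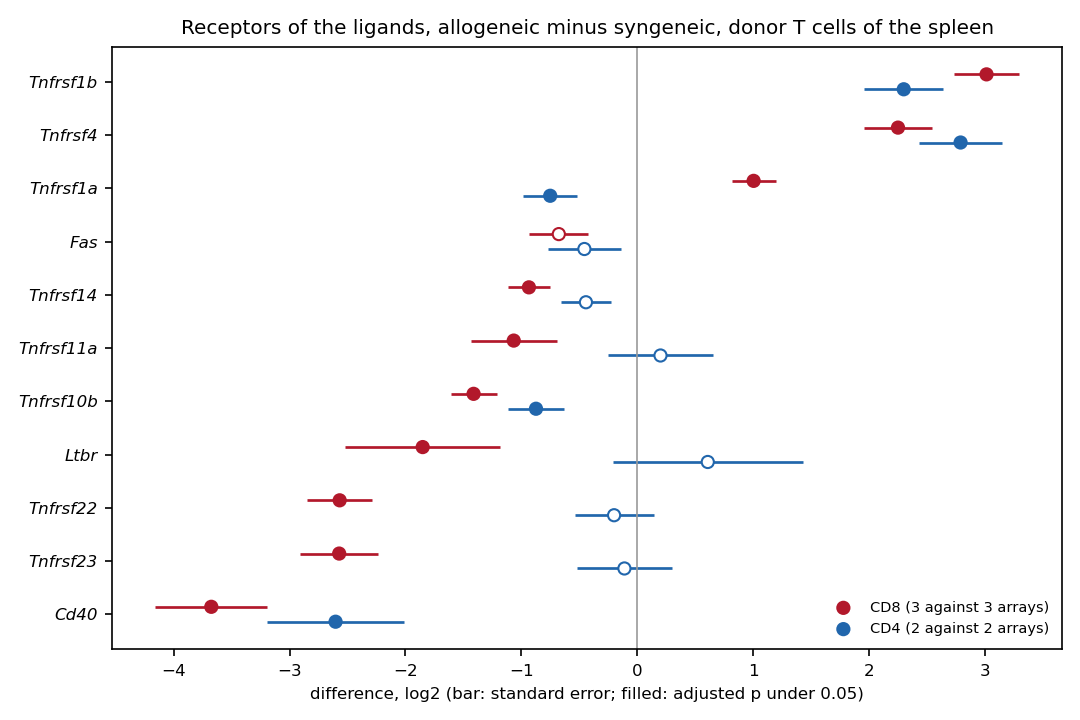
Points are log2 differences of the 11 tested receptors between allogeneic and syngeneic splenic T cells, in CD8 cells (3 against 3 arrays) and CD4 cells (2 against 2), with bars of 1 standard error; filled points passed an adjusted p of 0.05. Tnfrsf1b and Tnfrsf4 lie between 2.25 and 3.01 in both subsets, and Tnfrsf1a lies at 1.003 in CD8 cells and -0.75 in CD4 cells.

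Between subsets the receptor Tnfrsf4 ran against its ligand. It was lower in CD8 than in CD4 cells by 2.92 in ovary (difference -2.92 ± 0.31, limma adjusted p = 0.000122), with differences of -2.82 ± 0.33 in allogeneic and -2.28 ± 0.33 in syngeneic spleen. Tnfsf4 was higher in allogeneic CD8 cells, the only groups that brought it past the filter. Of the 11 receptors 1 was higher and 5 lower in ovarian CD8 cells (7.12% and 8.05% of all features), 1 higher and 4 lower in allogeneic spleen (13% and 13.7%) and 0 higher and 1 lower in syngeneic spleen (1.13% and 2.52%). Tnfrsf1a was higher in CD8 cells in ovary (1.39) and allogeneic spleen (1.52), Tnfrsf22 and Tnfrsf23 were lower in both (-1.82 to -2.20), and Ltbr was lower in both (-2.81 and -2.29). Fas did not pass the test in any of the 3 settings, with differences of 0.27, -0.26 and -0.04. Between ovary and spleen limma called 0 of 11 receptors in either subset, and 0 had an unadjusted p under 0.05. Those of Lta differed by -0.05 (Tnfrsf1a), 0.18 (Tnfrsf1b) and -0.38 (Ltbr) in CD8 cells and by 0.08, -0.17 and 0.14 in CD4 cells.

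Among other ligands of the family 7 of 8 had a named probe and 5 were tested. With allogeneic transplantation 3 rose and 0 fell in splenic CD8 cells (16.9% and 20.3% of all features), and 2 rose and 0 fell in CD4 cells (9.28% and 5.26%). Cd70, the ligand of Cd27, read -5.77 to -4.86 and was not well above background on the 3 syngeneic CD8 arrays, and read -1.03 to 0.38 on the allogeneic ones, at least 15.2-fold higher (limma adjusted p = 3.04e-06). In CD4 cells Cd70 rose by 5.07 ± 0.54 (SE, adjusted p = 0.000134). Tnfsf9, the 4-1BB ligand, rose by 1.82 ± 0.27 in CD8 and by 1.57 ± 0.33 in CD4 cells, and Tnfsf13b, the B-cell survival factor BAFF, rose by 4.28 ± 0.45 in CD8 cells with 1 of 3 syngeneic arrays above background. Between ovary and spleen limma called 0 of 5, and 0 had an unadjusted p under 0.05. Cd70 was lower in CD8 than in CD4 cells in ovary (-2.03) and allogeneic spleen (-1.70), where Tnfsf15 was lower too (-1.57) and Tnfsf13b higher (2.11).

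Other receptors of the family made a separate list, of which 11 were tested. Of these, 2 rose and 3 fell in allogeneic CD8 cells of the spleen, and 1 rose and 2 fell in CD4 cells, near the shares over all features (16.9% and 20.3%, and 9.28% and 5.26%). Tnfrsf18, the GITR receptor, rose in both, by 1.42 ± 0.21 and 1.38 ± 0.25 (SE), and Tnfrsf12a fell in both, by 2.46 ± 0.24 and 2.69 ± 0.30. Ngfr was at least 1.97-fold higher in allogeneic CD8 cells, Tnfrsf26 fell by 2.40 and Tnfrsf13b by 1.08 there, and Tnfrsf13c, the BAFF receptor of B cells, fell by 1.62 in CD4 cells. Tnfrsf12a was the 1 receptor called between ovary and spleen, higher by 1.94 ± 0.30 in ovarian CD4 cells (limma adjusted p = 0.0163), with 1 of 2 splenic arrays above background. In CD8 against CD4 cells of ovary, 2 of the 11 were higher and 6 lower (7.12% and 8.05% of all features). In allogeneic spleen 2 were higher and 4 lower (13% and 13.7%), in syngeneic spleen 0 and 4 (1.13% and 2.52%). Cd27, the receptor of Cd70, was higher in ovary (1.22) and allogeneic spleen (1.71), and Tnfrsf13c in ovary (0.91). Lower were Tnfrsf25 (-2.26), Tnfrsf13b (-1.67) and Tnfrsf12a (-1.54) in ovary. In allogeneic spleen Tnfrsf25 (-1.78), Tnfrsf13b (-1.62) and Tnfrsf18 (-1.10) were lower, in syngeneic spleen Tnfrsf25 (-2.06), Tnfrsf13c (-1.45) and Tnfrsf18 (-1.14).

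Genes whose profile over the 16 arrays was nearest to that of a ligand, by the root mean square difference of centred log2 values, are given as a description. Nearest to Fasl were Stk39 (0.49), Zbtb32 (0.53) and Prss16 (0.56, above background on 12 arrays), and nearest to Tnfsf10 were Rbpj (0.28), E2f3 (0.38) and Cpsf2 (0.38). Those nearest to Lta were Pfkfb4 (0.45), Ecm1 (0.47) and App (0.48). The nearest to Tnf were Il9r (0.36), Prap1 (0.37) and Fam217a (0.40), which were well above background on 8, 4 and 4 of 16 arrays. Tnfsf8 was nearest to Celf3 (0.33), Arrdc4 (0.34) and Pitpnm2os1 (0.37), and Tnfsf14 to Inppl1 (0.21), Myo5a (0.32) and Nol4l (0.32). Cd40lg, above background on 3 of 16 arrays, is left out. Tnfsf4 had Ppp1r3g (0.52), Calcb (0.71) and Faxc (0.76), above background on 8, 7 and 7 arrays, and Tnfsf11 had Tgm2 (0.91), Wfdc17 (0.93) and Maf (0.94) as nearest genes. All of these share the same arrays and the same normalization, and Ltb, whose group means spanned under 2, was not compared.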

How the data were processed

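RNA of sorted donor T cells was measured on 16 Agilent 1-colour arrays in 6 groups. Per the file headers, the deposited scanner files give each spot's intensity after background subtraction in Agilent Feature Extraction, version 11.5.1.1. The deposited series matrix holds log2 values. Judged from the values, these are log2 processed signal minus the 75th percentile of the array, with each probe centred on its median (lowest Pearson r over the arrays 0.999877, column medians -0.34 to 0.49). No source used here names the authors' software for that step. The deposited tables also carry other flags, of spots well above background, saturated (0 spots) or outlying, which were read as given.

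Log2 processed signal was shifted by each array's 75th percentile. Accessions were matched to a RefSeq gene table (GRCm38.p6), which named 27656 of 55681 probes, and 28025 stayed unnamed. The array's own coordinates use another build and are not given. A probe was kept if 1 or more groups had it well above background throughout (31122), and the probe with the highest mean stood for its gene, which left 26891 features, 13697 with a symbol. limma 3.58.1 in R 4.3.3 fitted 6 group means to the 16 arrays, with 10 residual and 2.21 prior degrees of freedom. There were 9 comparisons, each adjusted by Benjamini-Hochberg over all features. The fit was also run on simulated data with noise independent between arrays. Deviations of the real arrays correlate, so that run is no check of these calls. Arrays of a group correlated at 0.937 to 0.996, and none was a duplicate. Their number limits the precision.

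Ligands and gene lists were chosen with earlier results of these data known. All 10 ligands are described in every comparison. Genes of each other list were named from the called ones with the smallest adjusted p, at most 3 in each direction. Receptors of called ligands could be named whatever their call. Not every gene that met this is named in each comparison, above all in the interactions. For ligands whose group means span at least 2, the 3 nearest genes were named, except for Cd40lg, left out after its values were seen because it was rarely above background. The lists were other ligands, receptors of the ligands, other receptors, signalling, regulators of the ligands, and markers of other cell types. Tnfsf13, Cd68 and Insl3 had no named probe. Replicate numbers were not used to pair the samples. Deviations of 33 same-numbered pairs of arrays correlated between -0.44 and 0.44, and 20 exceeded 0.1. All arrays numbered 1 lie on slide 1 and all numbered 3 on slide 2, so number and slide cannot be told apart there. The main fit has a term for neither. The 30 alternatives covered normalization, background correction, filters, slide, replicate number, the samples in the fit and leaving out each array. Counting repeated unnamed probes once, a common signal floor, and leaving out both dimmest arrays were added after seeing the data.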

Additional observations from a re-analysis of the deposited data

Results flagged for a closer look

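Among ovarian CD8 arrays, the 1 group of 4 to which a test for an isolated array applies, 4 of the 10 ligands had a single array set apart, each time replicate 3. Tnfsf10 read 3.33 there against 4.32 to 4.33 on the others, Ltb 7.17 against 7.73 to 7.81, Tnfsf8 1.71 against 2.27 to 2.33 and Tnfsf4 -1.07 against -1.61 to -1.57. The gap made up 99.1%, 88.8%, 90.1% and 93.5% of the range, above the critical value of 82.9%. Chance sets about 1 in 20 such groups apart for a single gene, and the 4 share 1 array. That array had a 75th percentile of 190 intensity units, against 311 to 343 on the other 3 ovarian CD8 arrays. Whether its lower signal has a part in these readings was not tested.

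The effect of allogeneic transplantation differed between splenic CD8 and CD4 cells for 4 ligands by a test of the difference itself. The difference of effects, CD8 minus CD4, was 4.35 for Fasl, 3.95 for Tnfsf4, -1.33 for Lta and -2.40 for Tnfsf8. The value of Tnfsf4 is fitted against 5 syngeneic arrays where it was not well above background, so its size is not a measurement. Fasl rose on all 3 allogeneic CD8 arrays, whereas its allogeneic CD4 arrays, at 2.63 and 1.28, overlapped the syngeneic ones at 1.55 and 1.23.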

How the results depend on the processing

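Of the 37 called ligand differences, 33 kept their direction under every alternative run, and 4 became 0 with a common signal floor (Cd40lg in CD8 against CD4 cells of all 3 settings, Tnfsf4 in allogeneic against syngeneic CD4 cells). The floor also ended the call of Tnfsf11 in allogeneic against syngeneic CD8 cells (0.02). Slide 2 alone, whose fit has 8 arrays for 6 groups, called 0 ligands in every comparison except allogeneic against syngeneic CD8 cells, where it called 3. Slide 1 alone called 8 in allogeneic against syngeneic CD4 cells, 3 in ovary against spleen CD4 cells and 1 in the tissue interaction. Fitting only the groups compared called 2 in ovary against spleen CD8 cells, 0 in the CD4 cells, 0 in allogeneic against syngeneic CD4 cells and 2 in CD8 against CD4 cells of syngeneic spleen. Without a filter 0 ligands were called in ovary against spleen CD4 cells and 3 in allogeneic against syngeneic CD4 cells. With a filter on all 16 arrays, which drops dim ligands, 3 were called in the latter and 4 in CD8 against CD4 cells of ovary. In ovary against spleen CD8 cells normexp correction, a common signal floor and leaving out both dimmest arrays each called 2, Tnfsf4 being the added one when those arrays were left out (-1.87, adjusted p = 0.0123). Leaving them out also called 2 in ovary against spleen CD4 cells, and the floor called 1 in the tissue interaction. With the replicate number as a block, 0 ligands were called in ovary against spleen CD4 cells (Lta, adjusted p = 0.0708), and Tnfsf4 was lost in allogeneic against syngeneic CD4 cells (adjusted p = 0.063), while Tnf in CD8 against CD4 cells of allogeneic spleen (adjusted p = 0.0249) and Ltb in the transplant interaction (adjusted p = 0.039) were gained. Leaving out 1 array at a time gave 1 to 2 ligands in ovary against spleen CD8 cells, 0 to 1 in CD4 cells, 2 to 6 in allogeneic against syngeneic CD4 cells and 6 to 8 in CD8 cells. In CD8 against CD4 cells it gave 6 to 8 in ovary, 7 to 8 in allogeneic and 3 to 5 in syngeneic spleen, and it gave 4 to 5 in the transplant and 0 to 0 in the tissue interaction. Features called over all genes ranged over the alternatives from 1848 to 11955 (9997 as reported) in allogeneic against syngeneic CD8 cells, 0 to 6794 (3910) in CD4 cells, 3 to 6062 (4081), 0 to 9882 (7162) and 0 to 1326 (982) in CD8 against CD4 cells of ovary, allogeneic and syngeneic spleen, 0 to 248 (101) and 0 to 2193 (209) in ovary against spleen CD8 and CD4 cells, and 0 to 4509 (2832) and 0 to 1585 (6) in the transplant and tissue interactions. The transplant difference of effects of Tnfsf11, uncalled at 1.08, was called at -2.09 with the common floor of -2.50, which raises 5 of its 6 splenic CD8 readings. Averaging the probes of a gene turned Tnfrsf9 in ovary (0.23) and Cflar in allogeneic spleen (0.055) to higher in CD8 cells. Other causes were not tested. Probes not well above background give bounds, which limits Tnfsf4, Cd40lg and syngeneic CD8 Tnfsf11.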

Other observations

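Genes that carry the signal of these receptors were measured too. Of 29 tested adaptor, caspase and NF-kB genes, 5 rose and 3 fell with allogeneic transplantation in splenic CD8 cells, with a median difference of 0.04, and 3 rose and 2 fell in CD4 cells, with a median of 0.25. Over all features 16.9% rose and 20.3% fell in CD8 cells, and 9.28% rose and 5.26% fell in CD4 cells. Tnfaip8 rose in both, by 0.63 ± 0.12 (SE) in CD8 and 0.79 ± 0.14 in CD4 cells, and Traf2 (0.64) and the death adaptor Fadd (0.45) rose in CD8 cells. Nfkbie (0.78) and Nfkb2 (1.25) rose in CD4 cells. Map3k14, the NF-kB inducing kinase downstream of lymphotoxin beta receptor and CD40, fell in both, by 1.01 ± 0.17 and 0.83 ± 0.21, as did Traf4, by 0.98 and 0.96, and the kinase Ikbkb fell by 0.63 in CD8 cells. Traf5 was higher in CD8 than in CD4 cells in ovary and in allogeneic spleen, by 0.71 in each. Lower in CD8 cells were Cflar (-1.19), Relb (-0.79) and Nfkbie (-0.71) in allogeneic spleen and Nfkb1 (-1.21) and Birc3 (-0.69) in ovary. Averaging the probes of Cflar turned its difference to 0.055. Between ovary and spleen limma called 0 of 29 in either subset, with 0 in CD8 and 3 in CD4 cells at an unadjusted p under 0.05.

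Of 16 tested sheddases, RNA-binding proteins and activation-induced factors that act on ligand transcripts or proteins, 0 rose and 1 fell with allogeneic transplantation in CD8 cells. Over all features 16.9% rose and 20.3% fell there. In CD4 cells limma called 0, against 9.28% and 5.26% of all features. By limma 5 in CD8 cells and 2 in CD4 cells had an unadjusted p under 0.05. The gene that fell was Zfp36l1, an RNA-binding protein that promotes decay of AU-rich transcripts, by 1.47 ± 0.20 (SE, limma adjusted p = 0.00014) in CD8 cells. It was lower in CD8 than in CD4 cells in ovary (-0.96) and allogeneic spleen (-1.61), and Egr2 (-1.28) and Zfp36l2 (-0.65) were lower and the intramembrane protease Sppl2a (0.61) higher in allogeneic splenic CD8 cells.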
